A study of Caenorhabditis elegans with 3 samples.

Results

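The genes described here are the homeobox genes of Caenorhabditis elegans that carry a ceh name with a number, chosen by name from the protein-coding genes of the Ensembl annotation of WBcel235 (ce11). Of 63 such genes, ceh-13 and ceh-16 were left out, which leaves 61 among 19971 nuclear protein-coding genes. Homeobox genes encode transcription factors that bind DNA through a homeodomain, and in the worm many of them specify neuron types, while others act in muscle, gonad, epidermis or early lineages. They fall into classes by the homeodomain and the domains beside it, such as NK-like, paired-like, POU, cut, sine oculis, TALE and LIM. NHR-25 is a nuclear receptor of the FTZ-F1 family with known roles in the larval epidermis, and receptors of this family bind as monomers to an extended AGGTCA site.

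The occupancy of NHR-25 was measured by chromatin immunoprecipitation and sequencing in whole L2 larvae of both sexes, in 3 biological replicates that form a single group. All worms were of strain OP33, whose genotype is unc-119(ed3) III; wgIs33, an integrated transgene for NHR-25 tagged with GFP and FLAG at the C-terminus. Replicate 3 differed in its labels from replicates 1 and 2 in the source of the worms and in how the chromatin was fragmented. There was no comparison of conditions, and sites could come from any tissue of the larva, so tissue markers could not be checked. A gene was counted as having a site when the summit of a region in the authors' optimal list lay between 2000 bp upstream of its most upstream transcript start and the end of the gene. That list holds 4548 regions that passed a threshold on reproducibility, 4524 of them nuclear. Each replicate's own list holds 30000 regions, which mix peaks with background, and values from it are given as ranks by the signal that the authors' peak caller assigned (1 is the highest). The depth of the libraries is unknown from peak lists.

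Few ceh genes had a site. Of the 61 members, 6 (9.84%, 95% Wilson interval 4.59 to 19.8%, counting error only) had an optimal region in their window, against 3787 of all 19971 genes (19.0%), a share that lies within that interval. The share drawn from genes of like window length, given below, was 20.2%, close to the upper limit of the interval. The interval describes the count of members and is not a test against either share. The genes were ceh-38, ceh-20, ceh-8, ceh-88, ceh-43 and ceh-5, in order of signal, and each had exactly 1 region. No member had at least 2. Of all genes 833 (4.17%) did, a share that amounts to few genes among 61, and the difference was not tested. In the optimal list 69 entries share the coordinates of an earlier entry, and each was counted as a region. Per kilobase of window, members had 0.0179 regions and all genes 0.0486.

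The sequences of regions at or upstream of ceh-20, ceh-38 and ceh-43 are shown first, because the nearest protein-coding start to each summit is that of the member. The region upstream of ceh-5 also has its own gene's start as the nearest, and its sequence is not shown. They were read from the RefSeq sequence of WBcel235, plus strand, 5′ to 3′. Capitals mark matches, on either strand, to any of 7 motifs that were searched. These were the nuclear receptor site AGGTCA, its extended form CAAGGTCA, the repeat GAGAGA (which reads TCTCTC on the other strand), the E-box CACGTG, the GATA-type letters TGATAA, the homeodomain core TAATTA and the Grainyhead-type letters AACCGGTT. AGGTCA is contained in CAAGGTCA.

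The whole region upstream of ceh-20 (chrIII:6978972-6979229) is shown because it holds AGGTCA. For ceh-38 only the part of the region upstream of the gene (chrII:6951424-6951525) is given, since the summit itself lies in the 5′ UTR.
ceh-20: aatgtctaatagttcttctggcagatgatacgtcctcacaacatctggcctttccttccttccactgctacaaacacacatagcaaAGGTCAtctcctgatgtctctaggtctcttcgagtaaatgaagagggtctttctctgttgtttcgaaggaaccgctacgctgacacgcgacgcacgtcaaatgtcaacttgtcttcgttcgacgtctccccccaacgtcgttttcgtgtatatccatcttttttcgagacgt
ceh-38: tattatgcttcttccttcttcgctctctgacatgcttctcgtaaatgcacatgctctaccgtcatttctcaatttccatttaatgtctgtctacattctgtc

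Upstream of ceh-43 the annotation places no other protein-coding start nearer to 4 optimal summits, of which 1 is inside the window. Shown are 201 bp around the summit inside the window (chrIII:4451068-4451268), 201 bp around the next (chrIII:4452896-4453096) and the whole of the farthest region (chrIII:4456714-4456969), which has the highest signal of the 4.
ceh-43 near: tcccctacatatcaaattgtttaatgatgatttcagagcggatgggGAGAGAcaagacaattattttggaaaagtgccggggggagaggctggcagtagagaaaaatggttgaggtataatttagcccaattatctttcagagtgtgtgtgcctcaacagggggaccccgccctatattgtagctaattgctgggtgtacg
ceh-43 next: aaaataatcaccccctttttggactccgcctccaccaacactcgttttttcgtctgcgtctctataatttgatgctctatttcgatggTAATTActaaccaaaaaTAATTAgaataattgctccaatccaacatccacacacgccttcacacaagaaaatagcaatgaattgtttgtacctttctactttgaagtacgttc
ceh-43 far: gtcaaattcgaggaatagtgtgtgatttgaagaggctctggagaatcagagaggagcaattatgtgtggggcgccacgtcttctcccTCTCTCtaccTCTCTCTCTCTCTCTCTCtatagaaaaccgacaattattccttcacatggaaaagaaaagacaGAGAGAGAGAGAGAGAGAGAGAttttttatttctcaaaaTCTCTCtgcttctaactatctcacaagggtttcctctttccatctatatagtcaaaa

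The strongest region of the family was at ceh-38 (WBGene00000459, II, 6951526 to 6955409, plus strand), which encodes a ONECUT factor of the cut class. It spanned II, 6951424 to 6951701, with its summit in the 5′ UTR, 38 bp downstream of a transcript start. Its signal of 511 put it at rank 373 of the optimal list, and it stood at rank 278, 626 and 417 in replicates 1, 2 and 3. All 3 ranks were well within the strongest 4548 regions of the replicate. The window of malt-1, a paracaspase gene on the other strand, also held this summit, but the start of ceh-38 was the nearest. The other 5 cut-class members, ceh-21, ceh-39, ceh-41, ceh-48 and ceh-49, had no optimal region.

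The next was at ceh-20 (WBGene00000443, III, 6979884 to 6981785, plus strand), which encodes the Pbx-type TALE homeodomain protein, a DNA-binding partner of Hox proteins. The region (III, 6978972 to 6979229) had its summit 792 bp upstream of the single annotated start, and no other protein-coding gene had this summit in its window. Its signal was 409, rank 610 of the optimal list, with ranks 924, 507 and 631 in replicates 1, 2 and 3. The replicates placed their own summits 787, 797 and 746 bp upstream of the start of ceh-20, all inside the optimal region. No other listed region in the same window ranked better than 7763 in any replicate. AGGTCA lay 34 bp from this summit, as the sequence of ceh-20 above shows. The other Pbx-type genes, ceh-40 and ceh-60, had no optimal region, and ceh-40 had no listed region in any replicate.

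The third region with support in every replicate was at ceh-8 (WBGene00000433, I, 8245505 to 8250948, minus strand), a paired-like gene of Rax type. Here the summit lay in the 3′ UTR, 1353 bp from the nearest start of ceh-8 and 5334 bp from its most upstream start. The nearest start of any protein-coding gene was that of col-63, a collagen gene, 651 bp away. An annotated non-coding RNA gene, ZK265.11, spans the summit. The region (I, 8245419 to 8245808) had a signal of 219 and rank 1771, with ranks 1571, 1541 and 2176 in the replicates. In replicate 2 the overlapping region of rank 1541 had its own summit outside the window of ceh-8, and the best region with a summit inside ranked 12013. This site can therefore not be given to ceh-8 rather than col-63 from position alone.

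The remaining 3 regions were weak and were supported by 1 replicate each, where support means overlap by at least 1 bp with one of the 4548 strongest regions of that replicate. The region at ceh-88 (WBGene00008195, IV, 17331008 to 17331397), a homeobox gene to which no class was given here, stood at rank 3979 of the optimal list. It ranked 1927 in replicate 1 and 7978 in replicate 2, and no region of replicate 3 overlapped it. Its summit lay in the 3′ UTR of ceh-88 but only 324 bp from the start of C49C3.6.

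The region at ceh-43 (WBGene00000463, III, 4446638 to 4449943, minus strand), which encodes the Distal-less homologue, spanned III, 4450973 to 4451362 with its summit 1225 bp upstream. Its signal was 113 and its ranks were 5379, 3862 and 9585 in replicates 1, 2 and 3, so that only replicate 2 placed it among its strongest. An annotated non-coding RNA gene, C28A5.8, overlaps the stretch printed for it.

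The region at ceh-5 (WBGene00000430, I, 9727169 to 9728034, plus strand), a Vax-type NK-like gene, also had a signal of 113 (I, 9725242 to 9725631). It ranked 9313, 2511 and 5031 in replicates 1, 2 and 3, again with replicate 2 alone above rank 4548. The summit was 1732 bp upstream of ceh-5 and inside both eat-16, a gene for a regulator of G-protein signalling, and ocrl-1, an inositol phosphatase gene.

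**Figure D1:**
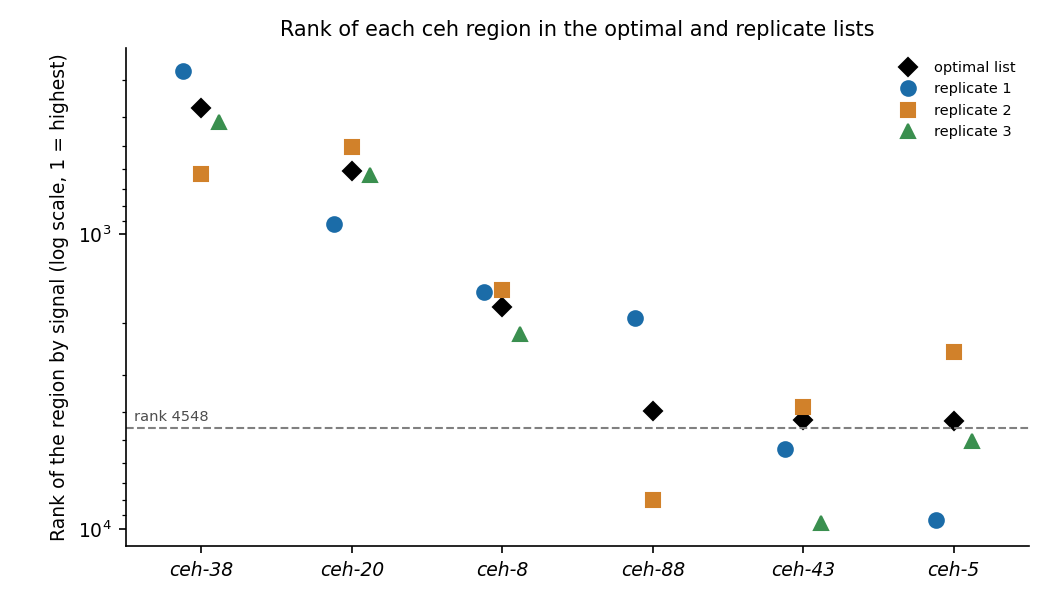
Rank by signal (log scale, 1 at the top) of the 6 optimal regions at ceh genes, in the optimal list (diamonds) and of the best overlapping region in replicates 1 (circles), 2 (squares) and 3 (triangles). The ranks of ceh-38, ceh-20 and ceh-8 lie above the dashed line at rank 4548 in all 3 replicates, while ceh-88, ceh-43 and ceh-5 each have 1 replicate above it and ceh-88 has no overlapping region in replicate 3.

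Of the 6 regions, 3 (95% Wilson interval 18.8 to 81.2%) were supported by all 3 replicates, beside 2501 of 4524 nuclear optimal regions (55.3%). Their median signal was 169 and that of all nuclear optimal regions 182. The supported regions were the 3 with rank 2274 or better, and of all nuclear regions down to that rank 91.6% were supported. The optimal list was itself thresholded on these replicates, so support is partly built in.

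By position, 3 of the 6 summits were upstream of the gene, 1 was in a 5′ UTR and 2 were in a 3′ UTR. None was in an intron or a coding exon. Over all 5070 pairs of a gene and an optimal summit in its window, 68.8% were upstream, 23.6% in an intron, 2.94% in a 5′ UTR, 2.01% in a 3′ UTR and 2.56% in a coding exon. Only ceh-38 and ceh-20 had a summit from 1000 bp upstream to 200 bp downstream of a transcript start. Over all 5070 pairs the share in that span was 58.1%. For 4 of the 6 genes the member's own start was the nearest to the summit, ceh-8 and ceh-88 being the exceptions.

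**Figure D2:**
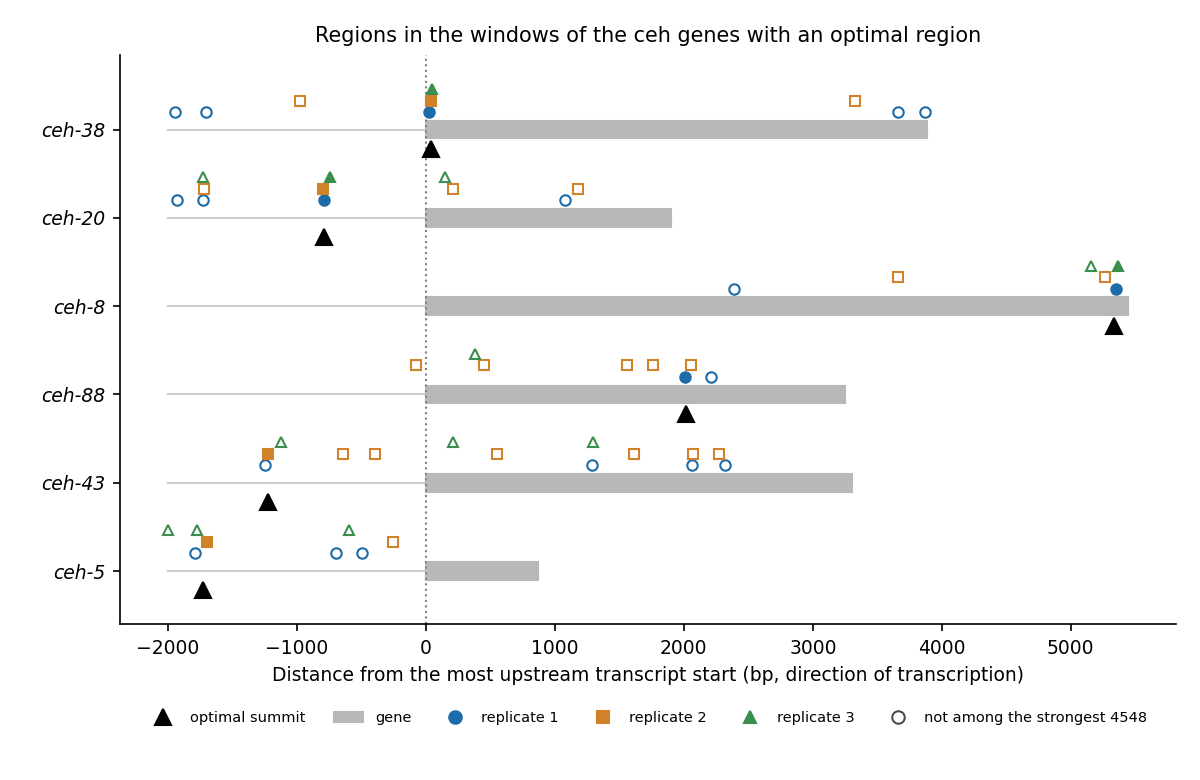
Map of the windows of the 6 ceh genes with an optimal region, by distance in bp from the most upstream transcript start in the direction of transcription. Black triangles below each gene mark the optimal summits, and symbols above it mark the summits listed for each replicate, filled where they rank among the strongest 4548. Filled symbols of all 3 replicates stack at the same place for ceh-38 and ceh-20.

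Motifs were counted in the 101 bp centred on each summit. AGGTCA was found at 1 of the 6 (ceh-20), beside 6.56% of all nuclear optimal summits, and GAGAGA at 1 (ceh-5), beside 24.6%. None of the 6 held any of the other 5 motifs in that span. The shares of all nuclear optimal summits were 1.08% for CAAGGTCA, 5.88% for CACGTG, 9.15% for TGATAA, 3.03% for TAATTA and 1.08% for AACCGGTT. At positions 500 bp from the summits the shares were 9.57% for TGATAA and 5.35% for TAATTA, so these were not more frequent at summits. The remaining 5 motifs were. The 6 summits are too few for their counts to be set against these shares by a test. Matches describe the letters and are not evidence of contact by a factor.

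The windows of ceh genes were somewhat longer than those of other genes, with a median of 4652 bp against 4027 bp, and long windows catch more summits. All genes were therefore put in 4 bins of about equal size by window length. In the bin of the shortest windows 1 of 8 members had a region, beside 14.7% of genes, and in the next 1 of 16, beside 13.6%. In the bin after that it was 2 of 17, beside 18.7%, and in that of the longest windows 2 of 20, beside 28.8%. With 10 bins, the shares of all genes in the members' bins add up to 12.3 members (20.2%). The difference of this value from the 6 found was not tested.

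**Figure D3:**
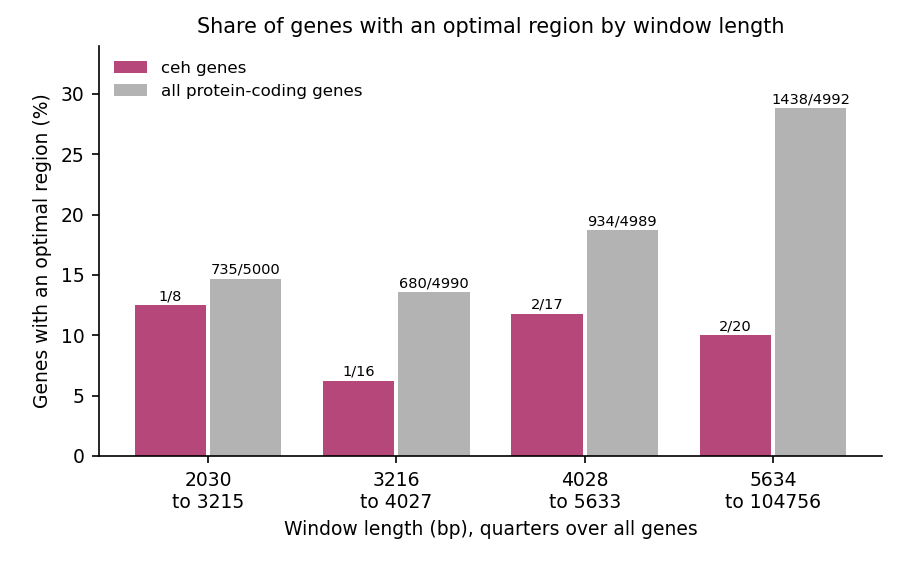
Share of genes with at least 1 optimal region (%), for ceh genes (coloured bars) and for all nuclear protein-coding genes (grey bars), in 4 bins of window length in bp, with the counts above the bars. Among the longest windows 2 of 20 ceh genes had a region beside 28.8% of all genes.

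By class, regions were found at 2 of 14 NK-like members (ceh-43 and ceh-5), 1 of 8 paired-like, 1 of 6 cut, 1 of 3 TALE and 1 of the 23 members to which no class was given here. Both POU genes, ceh-6 and ceh-18, all 3 sine oculis genes, ceh-32, ceh-33 and ceh-34, the LIM gene ceh-14 and the HB9-type gene ceh-12 had none. Classes were assigned from general knowledge of the family. None of the 18 members on chromosome X had an optimal region, where 19.7% of genes did, nor did any of the 12 on V, where 13.1% of genes did. The 6 genes lay on I, II, III and IV.

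Each replicate was also read on its own. Among its 4548 strongest regions, replicate 1 placed a summit in the windows of 5 members, replicate 2 of 6 and replicate 3 of 5. This was 8.75% ± 0.947 of the members (SD, n = 3), beside 19.3%, 19.5% and 19.3% of all genes in the same replicates. Only ceh-38, ceh-20 and ceh-100 (4.92%) had one in each of the 3, as 13.3% of all genes did. In some replicates but not all, ceh-8, ceh-88, ceh-5, ceh-43, ceh-27 and ceh-58 also had one.

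Counting every listed region, background included, replicates 1, 2 and 3 had a summit in the windows of 26, 29 and 29 members, or 42.6%, 47.5% and 47.5%. The shares of all genes were 51.5%, 57.5% and 52.6%. In all 3 lists together it was 15 members (24.6%) beside 39.8% of genes. The shares of all genes in the members' bins of window length add up to 26.1 members, and the difference was not tested. At the other end, 20 members (32.8%) had no listed region in any replicate, close to the 31.1% of all genes. Over the 15 members listed in every replicate, the Spearman correlation of their best ranks was 0.696 between replicates 1 and 2, 0.729 between 1 and 3 and 0.593 between 2 and 3. The replicates share a control, and these values are descriptions. Best ranks can come from different places in a window, and long windows can hold more listed regions. The correlations therefore do not measure agreement at the same sites.

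**Figure D4:**
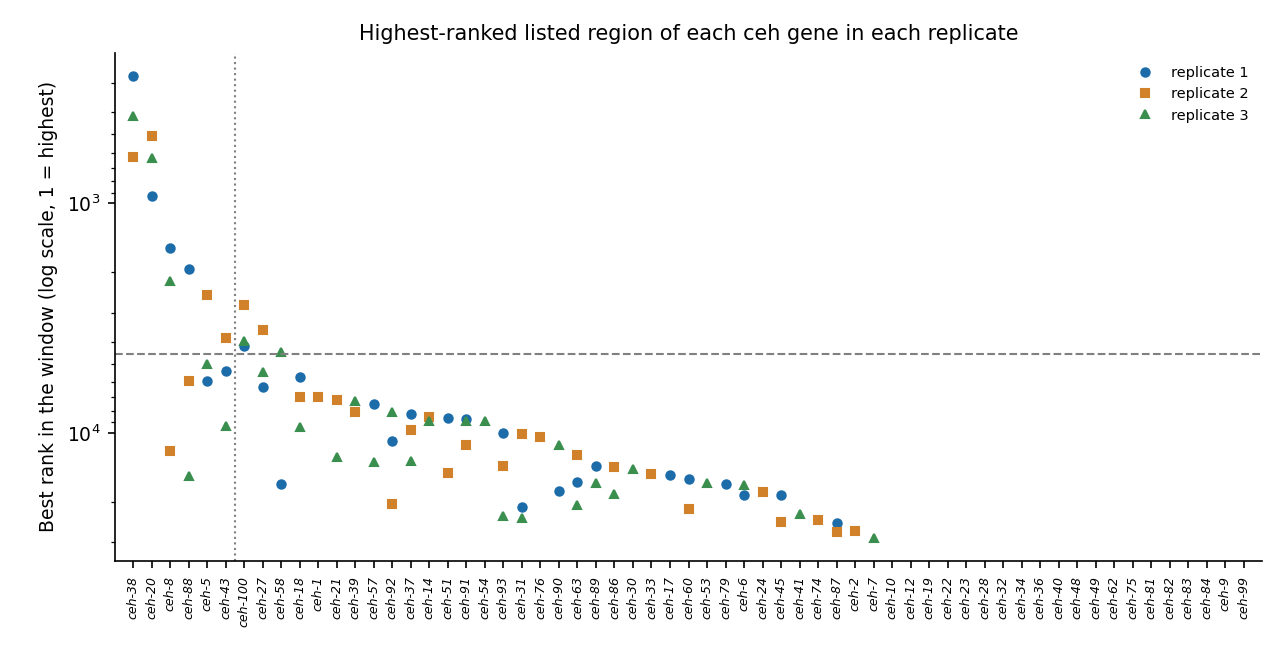
Best rank (log scale, 1 at the top) of any listed region with its summit in the window of each of the 61 ceh genes, for replicates 1 (circles), 2 (squares) and 3 (triangles). Genes left of the dotted line have an optimal region, the dashed line is rank 4548, and the 20 genes at the right without symbols have no listed region in any replicate.

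Among members without an optimal region, ceh-100, ceh-27, ceh-18, ceh-91 and ceh-37 had the best mean ranks over the 3 replicates. The gene ceh-100 (II, 12582178 to 12603680, minus strand) has the longest window of the family, 23503 bp. Its best regions ranked 4197, 2773 and 3971 in replicates 1, 2 and 3, within the strongest of each. Those of replicates 1 and 2 were 769 and 840 bp upstream of the start of ceh-100, but that of replicate 3 was 15578 bp inside the gene, and its region upstream ranked 21344. The best regions of replicates 1 and 2 thus overlapped, while that of replicate 3 was at another place.

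The gene ceh-27, an NK2-type gene, had best ranks of 6311, 3562 and 5457. In replicates 1 and 2 the best region lay 3495 and 3505 bp downstream of the most upstream start. In replicate 3 it lay 1629 bp downstream, where replicates 1 and 2 also listed regions, at 1613 and 1615 bp (ranks 29587 and 6603). For ceh-18, a POU gene that acts in the gonadal sheath cells, the best ranks were 5711, 6950 and 9440, none among the strongest 4548. Those of ceh-91 were 8665, 11314 and 8911, and those of ceh-37, an Otx-type gene of the AWB sensory neurons, were 8250, 9698 and 13282.

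The 20 members with no listed region in any replicate included ceh-22, the NK2-type gene of pharyngeal muscle, ceh-28, the NK2-type gene of a pharyngeal neuron, and ceh-34, the sine oculis gene of the pharyngeal nervous system. Also among them were ceh-32, the Optix-type gene of head morphogenesis, ceh-36, an Otx-type gene of chemosensory neurons, ceh-10, a Vsx-type gene of the AIY interneurons, ceh-12, the HB9-type gene of VB motor neurons, and ceh-23, expressed in sensory and AIY neurons. The others were ceh-9, ceh-19, ceh-40, ceh-48, ceh-49, ceh-62, ceh-75, ceh-81, ceh-82, ceh-83, ceh-84 and ceh-99. On chromosome II, ceh-81, ceh-82, ceh-83 and ceh-84 stood farthest from any optimal region, with the nearest summits at 409796 bp upstream of ceh-81, 411625 bp upstream of ceh-82, 413109 bp beyond the end of ceh-83 and 441604 bp upstream of ceh-84.

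A few members had optimal summits just beyond the edge of their windows. Inside the limit of 2000 bp, the farthest summit was that of ceh-5 at 1732 bp, and outside it the nearest was at 2557 bp upstream of ceh-39, a cut-class gene of the X-chromosome dose signal. That region had a signal of 117 and lay nearer to T26C11.8, and it was also the next upstream of the neighbouring cut-class genes ceh-21, at 5993 bp, and ceh-41, at 10054 bp. Behind gene ends, an optimal summit of signal 115 lay 166 bp after ceh-12, one of 273 lay 1002 bp after ceh-91 and one of 232 lay 1476 bp after ceh-93.

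The gene ceh-43 was the member with the most distal sites. Beyond the region in its window, 3 more optimal summits had its start as the nearest protein-coding start, at 3053, 4070 and 6879 bp upstream, with signals of 144, 131 and 321. The farthest stood at rank 958 of the optimal list and at ranks 1310, 667 and 1100 in the replicates, and was supported by all 3. The one at 4070 bp ranked 5303, 2624 and 6104 and was supported by 1 replicate. The one at 3053 bp ranked 2940, 4748 and 4382 and was supported by 2. In the sequences of ceh-43 above, the far region has 18 matches to GAGAGA, most of them overlapping, across and beside its summit, and the next region has TAATTA at 12 and 5 bp from its summit. The 201 bp around the summit at 4070 bp, not shown, held none of the 7 motifs. These distal regions were chosen after their values were seen.

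**Figure D5:**
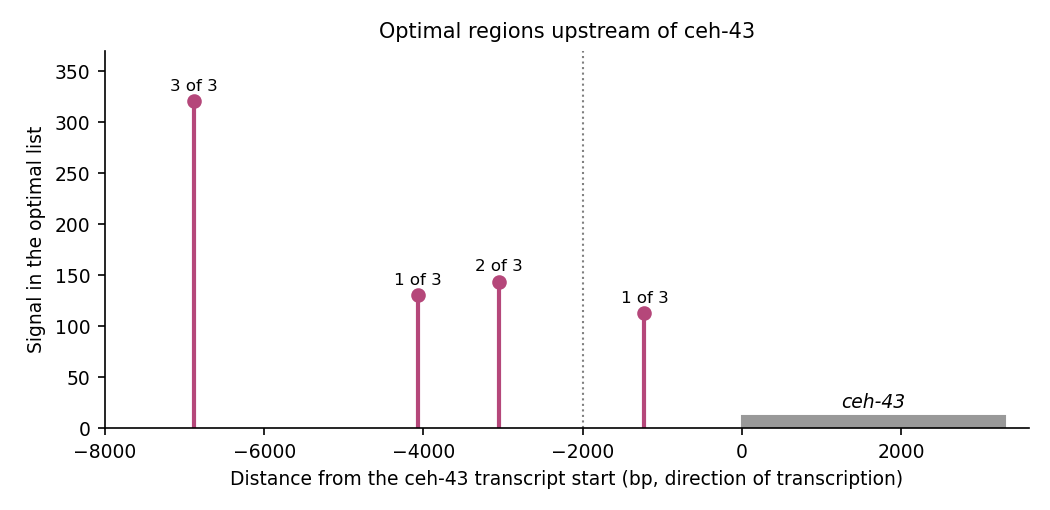
Optimal regions whose nearest protein-coding start is that of ceh-43, by distance of the summit from that start in bp (x axis) and signal in the optimal list (y axis). Labels give how many of the 3 replicates supported each, and the dotted line is the window limit of 2000 bp. The region of highest signal, 321, is the farthest, at 6879 bp.

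The gene ceh-58 had a similar site, 4095 bp upstream of its start (II, 10373497 to 10373886), with a signal of 214 and ranks 2154, 2356 and 1922. It was supported by all 3 replicates, although the window of ceh-58 itself held no optimal region. It was also the next optimal summit upstream of the neighbouring ceh-57, at 6396 bp. The sequence around this summit (chrII:10373592-10373792, plus strand, capitals as above) is shown because TGATAA and TAATTA overlap within 4 bp of the summit.
ceh-58: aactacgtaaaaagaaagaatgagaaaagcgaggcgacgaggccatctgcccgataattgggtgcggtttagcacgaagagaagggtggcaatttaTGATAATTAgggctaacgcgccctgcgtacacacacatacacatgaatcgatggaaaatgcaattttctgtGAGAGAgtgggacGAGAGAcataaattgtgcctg

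The other homeobox genes looked at were 40, namely genes without a numbered ceh name and also ceh-13 and ceh-16. Of these 40, 9 (22.5%) had an optimal region, with ceh-13 and ceh-16 both among the 9. Their windows were longer, with a median of 6680 bp, and the shares of all genes in the same 10 bins add up to 10 of these 40. The TALE gene unc-62, a Meis-type partner of Pbx proteins, had 5 regions, the highest of signal 238. The gene dve-1, a homologue of Drosophila defective proventriculus, had 3, the highest of signal 260. By the same windows, 63 of 268 genes with a numbered nhr name (23.5%) and 5 of 25 with a numbered hlh name had a region, beside 51.2 and 4.14 from the shares of all genes in the same bins, families added after the values of the ceh genes were known. The differences between these families and the ceh genes were not tested.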

How the data were processed

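The regions are the authors' ce11 lists, and the sources used here name neither aligner nor peak caller. Per the file headers and notes deposited with them, regions were called for each replicate against a shared control, and the optimal list derives from these and from the pooled replicates. The signal of each region is as the authors deposited it, with scaling not stated, and was used for ranks within a list. The deposited −log10 q-values are tied for many regions and were not used. The ce10 lists, the pooled list and the control were not analysed here.

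Gene models were those of Ensembl release 115, leaving out nhr-25 and unc-119 because of the transgene. Summits were column 2 plus column 10, and coordinates are 1-based. The summit fell outside its region for 1 optimal region. Full values were given for members with a region, the 5 others of best mean rank and those never listed. Members and lists were chosen with earlier results of these data known, and no test was run. Other windows, thresholds, overlaps and replicate sets were tried as alternatives. Scripts (Python 3.11.15, numpy 2.4.6, pandas 2.3.3 and scipy 1.17.1) were tested on simulated data.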

Additional observations from a re-analysis of the deposited data

How the results depend on the processing

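The count of 6 members and of 6 regions fell to 3 and 3 with windows from 500 bp upstream, to 2 and 2 with promoter windows alone, and to 3 and 3 among optimal regions of rank 2274 or better. Leaving out each replicate in turn gave 3 to 3 members and 3 to 3 regions, ceh-8, ceh-20 and ceh-38 each time, since a region then had to recur in both others. The shares of all genes under these settings were 13.4%, 13.4%, 11.5% and 13.2 to 13.6%. With windows from 1000 bp upstream the count was 4 members (15.6% of all genes), with merged regions 6 (19.0%), and with the nearest start alone 5 members and 8 regions (15.7%), ceh-58 among the members. Support by all 3 replicates, 3 of 6 regions beside 55.3% of all nuclear regions, became 2 of 6 beside 33.1% with overlap of at least 50% of both regions and 2 of 6 beside 46.7% with summits within 100 bp. It was 3 of 6 beside 31.7% and 82.9% with 0.5 and 2 times as many regions per replicate, and 3 of 3 beside 91.6% at rank 2274 or better. Motif counts moved with the width searched, AGGTCA from 0 of 6 within 25 bp (3.58% of all nuclear summits) to 3 of 6 within 100 bp (12.1%). Depth is unknown, so a missing region does not show absence of binding.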
